A study of Homo sapiens with 8 samples.

Results

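The SOX family comprises transcription factors that share the high mobility group (HMG) box of SRY, a DNA-binding domain that sits in the minor groove and bends the helix. A set of 10 of its genes is described here as measured in OAW42-R ovarian cancer cells after knockdown of the long noncoding RNA UCA1. These members are SOX2, SOX4, SOX5, SOX6, SOX7, SOX9, SOX11, SOX12, SOX13 and SOX15. They were chosen by gene symbol, with earlier results of the same contrast known, among 47753 gene names on the array. A probe was assigned to a member when the RefSeq accession of its annotation belonged to that gene, which gave 13 probes. Because the contrast between siUCA1 and sictrl was used for the choice, the differences of the members are given as descriptions with their errors and without a test. Of the 10 members, 4 had a probe bright enough to be tested among the 15456 genes tested in all.

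OAW42-R was grown out of OAW42, a serous ovarian cancer line, by repeated exposure to cisplatin and is resistant to that drug, so all 8 samples come from 1 resistant line. Cells were transfected with 20 nM of a nontargeting siRNA pool (sictrl) or with 20 nM of siRNAs 2 and 4 against UCA1 (siUCA1), and each condition had 4 samples, with replicates named A1, M2, A2 and A3. The sample labels place RNA extraction 24 h after transfection, and the methods of the study name a later time, so that the time of these samples is not settled. RNA was hybridized to one-color Agilent arrays, and the processed signal of each spot was used on a log2 scale after subtraction of the 75th percentile of its array. A value of 0 is therefore a signal equal to that percentile, and each step of 1 is a doubling. Signals of different probes depend on the probe and were not set against each other.

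SOX factors bind short sequences built around ACAAAG or AACAAT and depend on partner proteins bound beside them. The groups differ in what lies outside the HMG box. SOX2 (group B) activates genes of pluripotent and neural cells together with POU5F1. SOX4, SOX11 and SOX12 (group C) are activators of progenitor cells, and SOX9 (group E) drives cartilage and testis programs. SOX5, SOX6 and SOX13 (group D) have no activation domain of their own, pair through a coiled coil, and act as activators or repressors according to the partner. SOX7 belongs with SOX17 and SOX18 (group F), known from endothelium and endoderm, and SOX15 is the single member of group G. In the female reproductive tract, SOX17 and PAX8 are lineage factors of the cells from which serous carcinomas arise.

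Both binding words were searched on both strands of the 250 bases before each RefSeq transcription start, to show where the promoters of the members themselves carry them. Windows of 6 of the 10 members were searched, with 10 starts in all. AACAAT (also read as ATTGTT) or ACAAAG (also read as CTTTGT) lay in 5 of these 10 windows and in 20.9% of all 35116 windows. The 6 matches before SOX6 starts, and those before SOX2 and SOX5, are shown 5′ to 3′ on the strand of the gene, with the word in capitals (RefSeq, GRCh38.p14).
SOX6, start 2, chr11:16476539-16476568, minus strand: aaccatgaaataATTGTTtcttttggcatt
SOX6, start 4, chr11:16402961-16402990, minus strand: catctgtgagggAACAATggacttgtgttt
SOX6, start 5, chr11:16356715-16356744, minus strand: gcctgaatggcgCTTTGTttactgttttcc
SOX6, start 5, chr11:16356646-16356675, minus strand: tttctttctttcAACAATgcttgattgttt
SOX6, start 5, chr11:16356635-16356664, minus strand: caacaatgcttgATTGTTttcacaaaaatt
SOX6, start 5, chr11:16356547-16356569, minus strand: tcccctgtgctcACAAAGggctc
SOX2, start 1, chr3:181711693-181711722, plus strand: gcgagaggggatACAAAGgtttctcagtgg
SOX5, start 1, chr12:24562653-24562682, minus strand: ctcgcctcccccATTGTTcctactgtcttt

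SOX6 has 5 annotated starts, and they differ in composition. The window of the start farthest upstream held 58.8% G and C, near the median of 58.0% over all windows, and no match. The other SOX6 windows held between 27.2% and 40.8% G and C, and 3 of these 4 held a match. SOX4, SOX12 and SOX13, each searched at 1 start, held neither word. A match describes letters in the window and was not tied to binding here, and the array does not show which start gave the SOX6 transcript.

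The knockdown and the arrays were checked first. UCA1 had scaled log2 signals of 8.35, 8.37, 8.60 and 7.48 in sictrl and of 3.68, 2.59, 3.02 and 3.34 in siUCA1. Every siUCA1 array was below every sictrl array, and UCA1 fell by 5.04 on the log2 scale (SE 0.29, adjusted p = 0.000122, limma). Of the 15456 genes, 1788 (11.6%) passed an adjusted p of 0.05 and are named called below. In siUCA1, 884 of them (5.72% of all genes) were higher and 904 (5.85%) were lower. The groups did not overlap for 3222 genes (20.8%), of which 1728 (11.2%) were higher and 1494 (9.67%) lower. Higher genes were 49.4% of the calls, against 21.3% of 535 calls after median scaling and 39.5% of 380 calls after normexp background correction. All arrays lay on 1 slide in 2 rows, each row with 2 arrays per group. The arrays sictrl A3 and siUCA1 A1 had surface trends of 0.321 and 0.287 (root mean square of the fit of Feature Extraction), against 0.0737 to 0.0943 on the other 6. Without this pair of arrays, 3878 of 15991 genes were called. Of 11 epithelial and ovarian markers, 8 were above background on all arrays, among them PAX8, EPCAM and KRT18, and 3 were above background on none. CDH1 and MUC1 from that list were lower in siUCA1 and CD14 from the leukocyte list was higher (adjusted p = 0.0149, 0.00534 and 0.0478, limma), and the call of CD14 was lost in 7 of the 8 fits that left out 1 array. The other detected epithelial markers were not called, with EPCAM at 0.50, KRT7 at 0.56, KRT8 at 0.30, KRT19 at 0.18, KRT18 at -0.10 and PAX8 at -0.16. Above background on all arrays were also 2 of 4 leukocyte markers (CD14 and CD79A, the latter at 0.08), 1 of 4 endothelial markers (VWF, -0.08) and 1 of 5 neural markers (NES, -0.51), of which CD14 alone was called. No array detected 5 of 6 fibroblast markers, all 4 cartilage markers, 2 of 4 leukocyte, 2 of 4 endothelial or 3 of 5 neural markers. The part of these changes in the values below was not tested. Fewer cells that carry a transcript and less of it per cell cannot be told apart in such bulk RNA.

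Among the group D genes, SOX6 was higher in siUCA1 and was the one member that went from background to detection. The SOX6 probe (NM_017508) had processed signals of 16.0, 12.6, 9.13 and 6.44 intensity units in sictrl A1, M2, A2 and A3, and was well above background on none of these arrays. In siUCA1 A1, M2, A2 and A3 it had 31.0, 39.9, 46.9 and 31.8 units, and was well above background on all 4. On the scaled log2 axis the sictrl values were -3.07, -3.37, -3.73 and -4.06 and the siUCA1 values -1.78, -1.57, -1.25 and -1.89. The sictrl values are background readings, and all lay below the 4 detected siUCA1 values. The measured difference was 1.93 (SE 0.23, n = 4 per group). The sictrl level is not known. With each sictrl array held at its floor, the lowest signal well above its background, SOX6 was 2.62-fold higher in siUCA1. No strict bound follows, because a SOX5 probe on sictrl A3 lay above the floor without passing the background call. The siUCA1 signals lay between 0.86 and 1.40 above the floors of their own arrays on the log2 scale, so that SOX6 stayed a dim probe in both groups.

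The SOX6 difference was 1.71 (SE 0.19) within slide row 1 and 2.16 (SE 0.37) within slide row 2. It was 1.82 (SE 0.22) without sictrl A3 and siUCA1 A1. Normexp correction with an offset, which compresses dim signals, gave 0.38 (SE 0.12). With dim values raised to the floor of their array it was 1.39 (SE 0.18). When each array was left out in turn, the SOX6 difference ranged from 1.76 to 2.09. All of these values but the floored one are taken against sictrl readings at background, and they describe the measured signals rather than a known ratio.

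SOX13, the group D gene known also as an islet cell autoantigen, was detected on all arrays by both of its probes. The probe that stood for the gene (NM_005686) had scaled log2 signals of 0.83, 0.51, 0.14 and 0.76 in sictrl A1, M2, A2 and A3. In siUCA1 it had -0.12, 0.34, 0.55 and 0.42. The groups overlapped, with siUCA1 A1 the lowest of the 8 arrays and the rest interleaved. The means differed by -0.26 (SE 0.19), the lowest difference among the tested members and smaller than the SDs of 0.31 and 0.29 within the groups. The second SOX13 probe averaged -0.90 ± 0.34 (SD, n = 4) in sictrl and -1.02 ± 0.83 in siUCA1, where A1 lay at -2.26 and the other 3 arrays between -0.65 and -0.55. Without sictrl A3 and siUCA1 A1 the difference of SOX13 was -0.06 (SE 0.18), and it was -0.17 (SE 0.26) within slide row 1 and -0.35 (SE 0.16) within row 2.

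SOX5, the closest relative of SOX6 and its usual partner in cartilage, was not tested because none of its 3 probes was above background on all arrays of a group. Its best probe (NM_001261414) had scaled log2 signals of -2.89, -3.73, -3.00 and -1.85 in sictrl and of -2.44, -2.13, -2.23 and -3.03 in siUCA1. No sictrl array and 1 siUCA1 array, M2, showed it well above background. Values at this level have no order, and SOX5 gives no comparison. The other SOX5 probes were above background on no array.

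**Figure D1:**
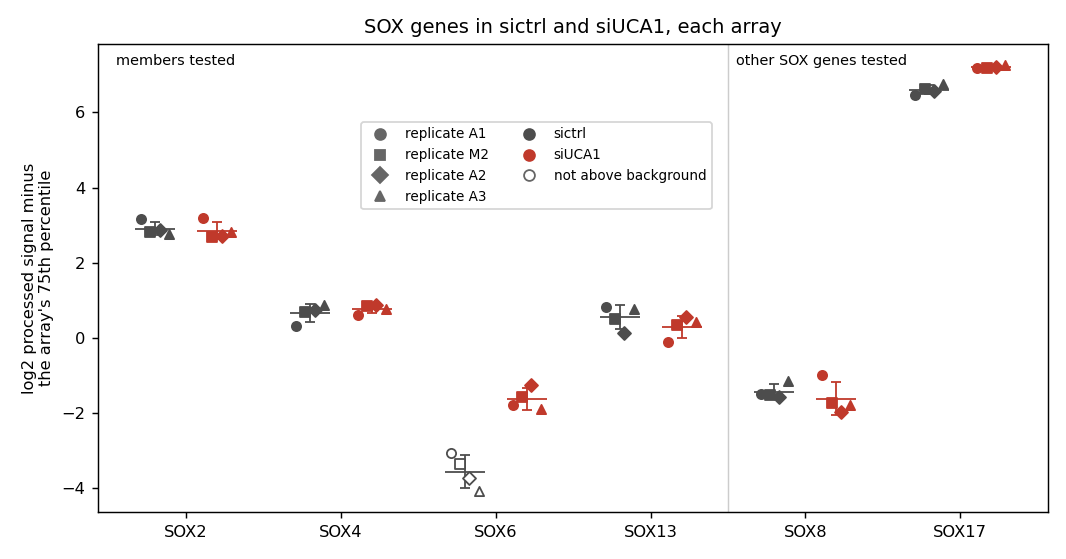
Scaled log2 processed signal (vertical axis, 0 is the 75th percentile of the array) of the 4 tested members and of 2 further SOX genes in sictrl (grey) and siUCA1 (red). Each symbol is 1 array, bars are mean ± SD (n = 4) and open symbols are not well above background. SOX6 is open on all 4 sictrl arrays and filled on all 4 siUCA1 arrays, and SOX2, SOX4 and SOX13 overlap between groups.

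SOX2, the pluripotency factor of group B, had scaled log2 signals of 3.17, 2.82, 2.87 and 2.76 in sictrl and of 3.18, 2.68, 2.72 and 2.82 in siUCA1 (NM_003106). It was detected on all 8 arrays, and A1 was the highest array in both groups. The means were 2.90 ± 0.18 and 2.85 ± 0.23 (SD, n = 4), a difference of -0.05 (SE 0.14). The siUCA1 signal was thus 96.3% of the sictrl signal, a gap smaller than either SD. The sign was not stable, with 0.16 (SE 0.18) within slide row 1 and -0.27 (SE 0.20) within slide row 2.

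SOX4, the group C activator tied to epithelial plasticity, had scaled log2 signals of 0.31, 0.68, 0.75 and 0.88 in sictrl and of 0.61, 0.84, 0.89 and 0.77 in siUCA1 (NM_003107). It was detected on all 8 arrays, and every siUCA1 value but the 0.89 of A2 lay inside the sictrl range. The means were 0.66 ± 0.25 and 0.78 ± 0.12, a difference of 0.12 (SE 0.14, n = 4 per group). Left out in turn, the arrays moved this between 0.01 and 0.20. SOX11 and SOX12, the other members of group C, were above background on no array.

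SOX9, the group E gene of cartilage, testis and several ducts, passed the background call on sictrl A1 and on no further array. Its probe (NM_000346) had scaled log2 signals of -2.23, -2.98, -3.35 and -3.92 in sictrl and of -4.21, -5.09, -3.71 and -3.95 in siUCA1. Apart from sictrl A1, these are background readings and were not compared. SOX7, of the endothelial group F, and SOX15, of group G, were above background on no array. The 6 probes above background on no array, which cover SOX7, SOX11, SOX12, SOX15 and 2 of the SOX5 probes, had processed signals from 2.75 to 9.11 intensity units. The dim readings depend on the array. The lowest signal well above background lay at a scaled log2 value of -2.11 on siUCA1 A2 and between -3.32 and -2.69 on the other arrays.

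**Figure D2:**
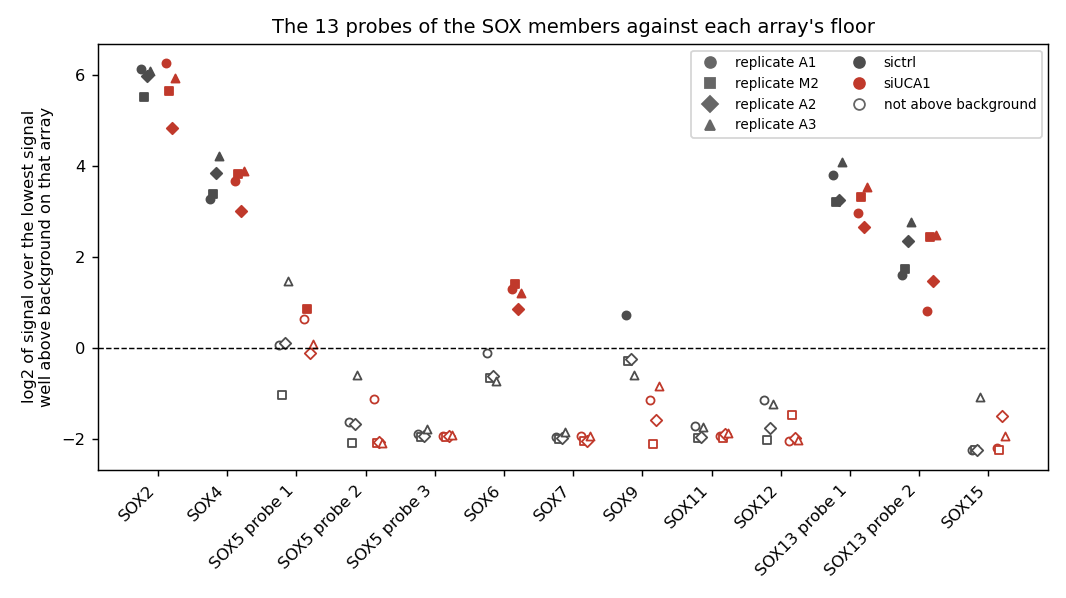
All 13 member probes on each array, as log2 of the processed signal over the lowest signal that was well above background on that array (dashed line at 0). Grey is sictrl, red is siUCA1, and open symbols are not well above background. SOX2, SOX4 and both SOX13 probes lie over the floor on all 8 arrays and SOX6 on the 4 siUCA1 arrays. SOX5 probe 1 reaches 1.47 over it on sictrl A3, without passing the background call there, and SOX9 reaches 0.72 on sictrl A1.

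In all, 5 of 13 member probes and 4 of 10 member genes passed the detection filter. SOX6 passed through siUCA1 alone, the group where it was high. Of the 4 tested members, 1 was called and 1 had groups that did not overlap, SOX6 both times and higher in siUCA1, beside 11.6% called and 20.8% not overlapping over all genes. The members were picked on this contrast, so nothing is read from that count. The median difference of the 4 tested members was 0.03, and that of all tested genes was 0.03 too.

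**Figure D3:**
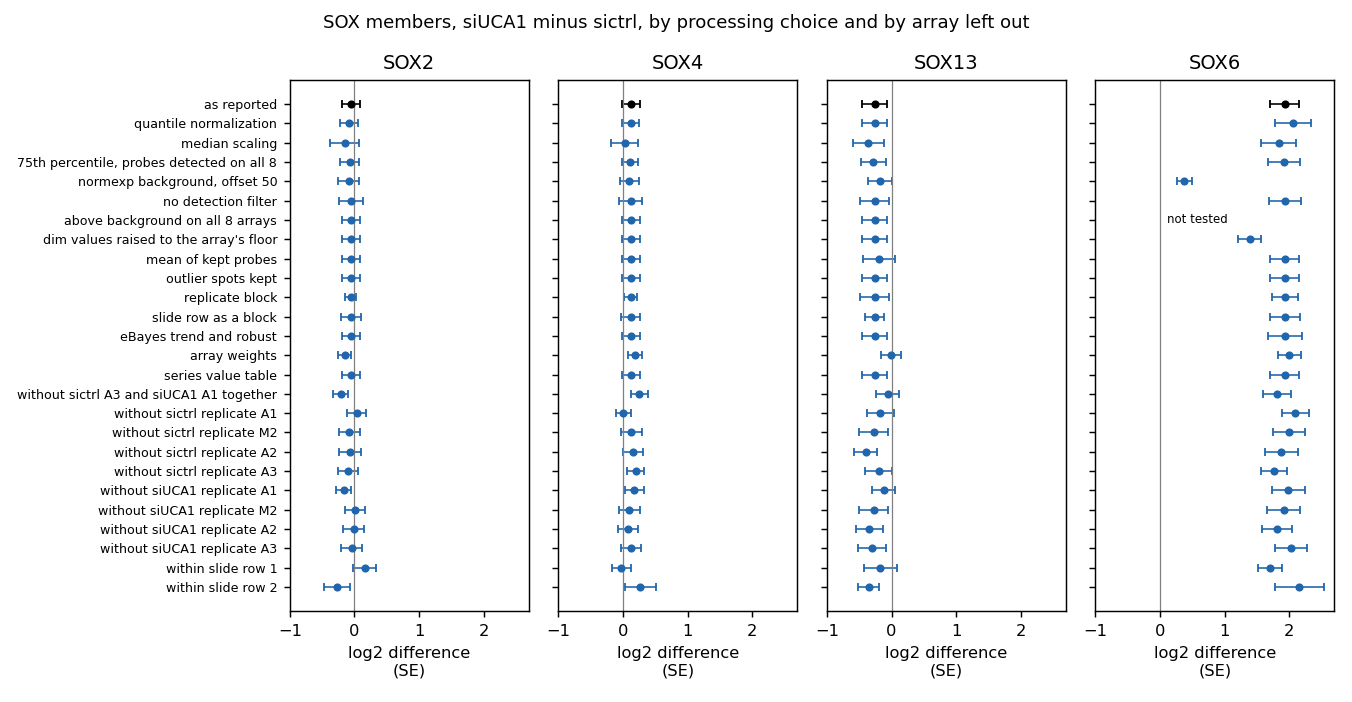
Log2 difference, siUCA1 minus sictrl, of SOX2, SOX4, SOX13 and SOX6 (horizontal axis, error bars SE) as reported (black), under other processing choices, with arrays left out and within each slide row (blue). SOX6 lies near 2 except under normexp (0.38) and with dim values raised to the floor (1.39), and it is not tested where detection on all 8 arrays is asked for.

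Of 10 other SOX genes on the array, SOX17 and SOX8 were tested. SOX17, the group F lineage factor, had scaled log2 signals of 6.46, 6.62, 6.57 and 6.76 in sictrl and of 7.18, 7.18, 7.21 and 7.25 in siUCA1. The 4 siUCA1 arrays lay close together and above every sictrl array. SOX17 rose by 0.61 (SE 0.09, adjusted p = 0.00645, limma), a 1.52-fold change. The rise was 0.62 within slide row 1 and 0.59 within row 2, and was called in neither (adjusted p = 0.202 and 0.231, limma). The call was also lost with median scaling (0.51, adjusted p = 0.199, limma), with normexp (0.59, adjusted p = 0.0632) and without a detection filter (adjusted p = 0.181). Over all alternatives, adjusted p ranged from 0.000341 to 0.231. SOX8, a group E relative of SOX9, averaged -1.43 ± 0.19 and -1.62 ± 0.43 (SD, n = 4), a difference of -0.19 (SE 0.21, adjusted p = 0.618, limma). SOX3, of group B, was above background on 1 sictrl and 3 siUCA1 arrays and was not tested.

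Noncoding RNAs of the SOX loci were mostly below background. Of 7 such RNAs on the array, CASC15, transcribed beside SOX4, was tested. Its brighter probe had scaled log2 signals of 1.78, 2.04, 2.02 and -1.35 in sictrl and of -0.24, 1.86, 1.81 and 0.91 in siUCA1, and did not pass the test (difference -0.04, SE 0.80, adjusted p = 0.979, limma). The 2 lowest readings came from sictrl A3 and siUCA1 A1, the arrays with the large surface trend. The dimmer CASC15 probe was above background on all 4 sictrl arrays (-2.56, -2.44, -2.54 and -2.30) and on none of siUCA1 (-2.91, -3.59, -4.34 and -3.76). With siUCA1 readings under the floor of their array raised to it, the probe was 1.24-fold lower in siUCA1. No strict bound follows, because the siUCA1 A1 reading lay over the floor without passing the background call. The probe was kept through sictrl alone, the group where it was high, and its siUCA1 values are background readings. The difference between the CASC15 probes was not tested. ROCR was above background on 1 sictrl array, and SOX2-OT, SOX9-AS1, SOX5-AS1, SOX21-AS1 and SOX1-OT on none.

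Genes tied to SOX factors as partners or targets were then counted, in 6 lists. Of 84 such genes, 81 were on the array and 41 were tested, of which 6 were higher and 1 lower in siUCA1. This is 17.1%, beside 11.6% of all genes. The median difference of the 41 genes was 0.01, beside 0.03 over all genes. Without sictrl A3 and siUCA1 A1, 15 of 42 were called, beside 24.3% of all genes in that fit, and without siUCA1 A1 alone 11 of 41, beside 14.6%. The lists mix genes that SOX factors activate, repress or bind beside, and each gene has other regulators.

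Of 23 partners and modifiers, 17 were tested and 1 was called. EP300, the acetyltransferase that serves SOX factors as a coactivator, rose by 0.51 (SE 0.10, adjusted p = 0.0132, limma). Its close relative CREBBP had a difference of -0.03 (SE 0.16), and the SOX2 partner POU5F1 one of 0.13 (SE 0.22). CTBP2, a corepressor bound by SOX6, had a difference of 0.07 (SE 0.09), and HDAC1, a histone deacetylase, one of 0.10 (SE 0.13). FBXW7, a ubiquitin ligase subunit that acts on SOX9, was at -0.82 (SE 0.29) and CHD7, a chromatin remodeler that binds SOX2, at 0.77 (SE 0.27), and neither passed the test. EP300 lost its call with median scaling (0.41), with normexp (0.39) and without a detection filter.

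Of 11 SOX6-linked genes, 3 were tested and 1 was called. CDKN1A, which encodes the cell cycle inhibitor p21, rose from 1.31 ± 0.14 to 2.57 ± 0.26 (SD, n = 4), a difference of 1.26 (SE 0.14, adjusted p = 0.00238, limma). CCND1, encoding cyclin D1, had a difference of -0.04 (SE 0.10), and the troponin gene TNNC1 one of 0.03 (SE 0.17). The globin genes and the heart and muscle genes of that list were otherwise not tested.

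Of 14 cartilage genes that SOX9, SOX5 and SOX6 activate together, 5 were tested and 1 was called. COL9A3, a chain of type IX collagen, fell by 1.47 (SE 0.23, adjusted p = 0.00656, limma), from 2.89 ± 0.27 to 1.42 ± 0.44 (SD, n = 4). Its partner chain COL9A2 was at -0.49 (SE 0.22) and the matrix protein gene COMP at -0.76 (SE 0.27), and neither passed the test (adjusted p = 0.193 and 0.112, limma). COL11A2 was at 0.26 (SE 0.17) and MATN3 at -0.20 (SE 0.24).

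Of 20 genes of the pluripotency circuit of SOX2, 18 were on the array, 7 were tested and 1 was called. LEFTY1, a secreted inhibitor of NODAL signaling, had scaled log2 signals of -1.85, -1.04, -2.03 and -1.86 in sictrl and of 0.27, 1.53, 1.33 and 1.34 in siUCA1. It rose by 2.81 (SE 0.31, adjusted p = 0.00201, limma), the largest change in the lists, and by 1.51 with normexp (adjusted p = 0.0237, limma). MYC was at -0.30 (SE 0.10, adjusted p = 0.0785, limma), KLF4 at 0.06 (SE 0.30) and TERT at -0.24 (SE 0.25).

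Of 8 targets of SOX4 and SOX11, 6 were tested and 2 were called, both higher. DICER1, the RNase that matures microRNAs, rose by 1.11 (SE 0.11, adjusted p = 0.00159, limma), and SEMA3C, a secreted semaphorin, by 1.23 (SE 0.18, adjusted p = 0.00579, limma). EZH2, the methyltransferase of Polycomb complexes, was at -0.17 (SE 0.13), the neuronal tubulin gene TUBB3 at -0.10 (SE 0.19) and TEAD2, of the Hippo pathway, at -0.23 (SE 0.19). Of 10 targets of SOX9 and of group F, 4 were tested and SPP1, which encodes osteopontin, was called. It rose from 5.99 ± 0.58 to 7.43 ± 0.39, a difference of 1.44 (SE 0.30, adjusted p = 0.0183, limma). The SPP1 difference was 2.24 within slide row 1, which holds sictrl M2 and A2 with siUCA1 A1 and A3, and 0.64 within slide row 2, so that each row sets differently named replicates against each other. Its call was lost without sictrl M2 or without sictrl A2. MMP7, a matrix protease, was at 0.86 (SE 0.42) and was not called. It was called with the replicate name as a block in the fit (SE 0.08, adjusted p = 0.0133, limma). The SOX9 targets PTGDS and BMI1 were at 0.43 (SE 0.25) and -0.53 (SE 0.35). The promoter windows of 5 of the 7 called genes were searched. A SOX word was found before DICER1 alone, in 2 of 10 windows, near the share of 20.9% over all windows.

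**Figure D4:**
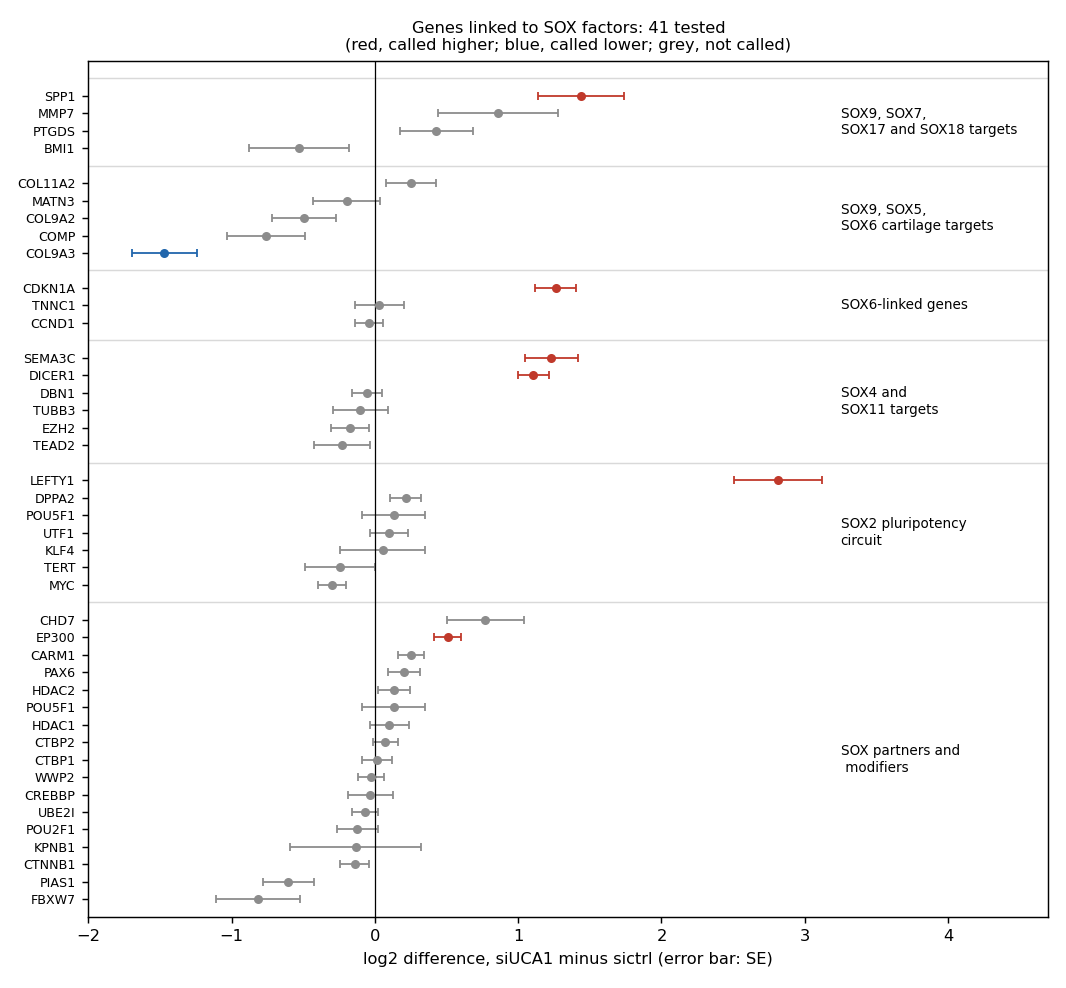
Log2 difference, siUCA1 minus sictrl (horizontal axis, error bars SE), of the tested genes of the 6 lists, with POU5F1 in 2 of them. Red genes were called higher (EP300, LEFTY1, DICER1, SEMA3C, CDKN1A and SPP1), the blue gene lower (COL9A3) and grey genes were not called.

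The nearest tested gene on each side of 9 members, all but SOX5, was examined to describe the surroundings of the SOX loci. Of these 18 neighbours, 3 were higher and 3 lower in siUCA1, 33.3% beside 11.6% of all genes. On the 2 sides of SOX6, C11orf58 fell by 0.45 (SE 0.12, adjusted p = 0.0462, limma) and CYP2R1, a vitamin D hydroxylase, was at 0.04 (SE 0.14, adjusted p = 0.896). The call of C11orf58 was lost in 7 of the 8 fits that left out 1 array. Beside SOX4, CDKAL1 rose by 0.64 (SE 0.10, adjusted p = 0.00766, limma).

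SOX9 lies in a long stretch with few genes, and its neighbours moved in opposite directions. KCNJ2, a potassium channel gene, rose by 0.68 (SE 0.11, adjusted p = 0.00843, limma) and SLC39A11, a zinc transporter gene, fell by 0.84 (SE 0.12, adjusted p = 0.00437, limma). ZCCHC3, beside SOX12, rose by 0.66 (SE 0.09, adjusted p = 0.00362, limma) and MPDU1, beside SOX15, fell by 0.60 (SE 0.12, adjusted p = 0.0147, limma). The tested neighbours of SOX2, SOX7, SOX11 and SOX13 were not called. The number of called neighbours was 1 with median scaling, 1 with normexp and 0 without a detection filter, beside 3.46%, 2.46% and 0.159% of all genes in those fits. The call of MPDU1 was lost without sictrl A2 or without siUCA1 A2. Within each slide row, with 2 arrays against 2, no neighbour and no gene of the 6 lists was called. The groups of the called genes did not overlap over all arrays, so their direction within a row could not change.

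**Figure D5:**
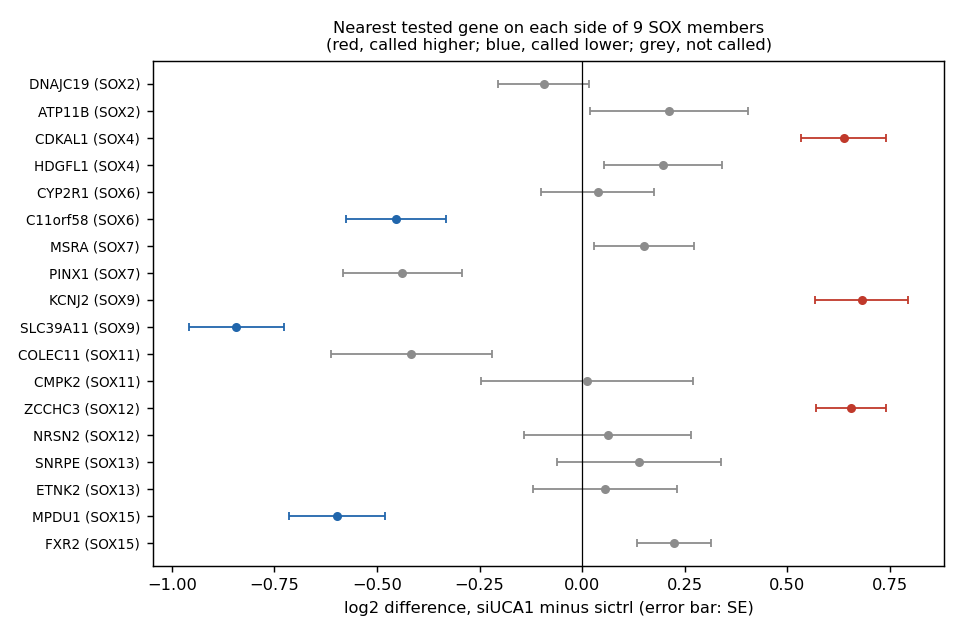
Log2 difference, siUCA1 minus sictrl (horizontal axis, error bars SE), of the nearest tested gene on each side of 9 members, with the member in brackets. Red marks the 3 genes called higher, blue the 3 called lower and grey the 12 not called.

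The tested genes whose scaled signals followed SOX6 most closely over the 8 arrays were GAPVD1 (Pearson r = 0.989), ALAS1 (0.987) and IVNS1ABP (0.986). GAPVD1 acts in endosome traffic and ALAS1 starts heme synthesis. The means of these genes differed by 0.43, 0.47 and 0.80 between siUCA1 and sictrl, so that the correlations contain the difference between the groups, and the 4 sictrl readings of SOX6 are background, so that their order carries no information. For SOX13 the closest genes were EEFSEC (r = 0.968), STARD13 (0.924) and A2M-AS1 (0.911), with differences of -0.29, -0.35 and -0.35 and none called. The 8 arrays share the slide and the 2 groups, and these values are descriptions.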

How the data were processed

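RNA from 8 OAW42-R samples (4 sictrl, 4 siUCA1, grouped by their sample labels) was measured on one-color Agilent arrays. The authors deposited Feature Extraction 10.7.3.1 output, in which the processed signal is a linear intensity after background subtraction and removal of a surface trend, without normalization between arrays. The deposited table of the series held the same values. For the test, the methods cite limma with adjustment by Benjamini-Hochberg.

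From the deposited intensity, log2 values were taken and the 75th percentile of each array's non-control spots was subtracted. Outlier spots were left out and spots of a probe averaged. A probe was kept when every array of 1 group or of both showed it well above background, and the brightest kept probe stood for a gene. Names came from the RefSeq table of GRCh38.p14 (31104 of 58201 probes matched). All 15456 genes were fitted with limma 3.58.1 in R 4.3.3 and called at an adjusted p under 0.05. The fit was run on simulated data with independent normal values and some shifted genes. Surface trends, replicate pairs and a background floor were not simulated, so the run does not cover them. Figures were drawn with matplotlib 3.10.9.

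Members, lists, markers and the rule for named genes (all members, UCA1, called genes of the lists and neighbours, and the 3 genes most like SOX6 and SOX13) were chosen with earlier results of these data known. Further genes of the lists are named as examples. The neighbours of SOX5 are not reported here. Replicates are described as independent experiments. Within a group, arrays correlated at 0.982 to 0.997. Both groups carry the same 4 names, which may mark shared experiments, though no label says so. Deviations of same-named arrays correlated over 0.1 in 3 of 4 pairs (r from 0.04 to 0.28), which cannot settle the question. The main fit did not take the names as pairs, and a fit with the name as a block is given below. Alternatives covered scaling, background, detection, probe choice, blocks, weights and left-out arrays. The number of arrays limits precision.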

Additional observations from a re-analysis of the deposited data

Results flagged for a closer look

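In 5 of 42 sets of 4 arrays (21 probes in 2 groups), 1 array stood far from the other 3, where chance alone gives about 5% of sets. All 5 lay on sictrl A3 or siUCA1 A1, the arrays with the large surface trend. The second SOX13 probe read -2.26 on siUCA1 A1, against -0.65 to -0.55 on the other 3. LEFTY1 read 0.27 on siUCA1 A1, against 1.33 to 1.53. On sictrl A3, CDKN1A read 1.52 against 1.22 to 1.27, C11orf58 read 5.12 against 4.87 to 4.91, and SOX8 read -1.15 against -1.56 to -1.50. The part of the surface trend in these readings was not tested.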

How the results depend on the processing

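There were 15 alternatives, 8 fits leaving out 1 array and 2 added after seeing the data (each slide row alone). None in which they were fitted turned the direction of SOX6 or of the 21 other called genes named in the text. SOX6 was picked on this contrast and the others were called on these same arrays, so a kept direction supports nothing. Several alternatives change the error alone and leave the difference as it was. The number of called genes (1788) was 535 with median scaling, 380 with normexp, 76 without a detection filter, 4816 with array weights, 3878 without sictrl A3 and siUCA1 A1 together, and 0 and 1 within slide rows 1 and 2. SOX members called (1, SOX6, picked on this contrast, so that its count supports nothing) numbered 0 with normexp, with detection on all 8 arrays (SOX6 not tested) and within either row. Called genes of the lists (7) became 2 without a detection filter, 16 with array weights, 15 without that pair of arrays, and 0 within either row. Called neighbours (6) became 1 with median scaling, 1 with normexp, 0 without a detection filter, and 0 within either row. Leaving out 1 array gave 760 to 2290 called genes, 1 member, 6 to 11 list genes and 4 to 7 neighbours. The lowest gene counts came without sictrl A2 (760) and without siUCA1 A2 (783). The cause of these shifts was not tested, beyond fewer arrays and, without a filter, 47753 genes tested.

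With the replicate block, 1727 genes, 1 member, 8 list genes and 5 neighbours were called, and of those 21 genes C11orf58 lost its call (adjusted p = 0.0513, limma, and 0.00279 to 0.480 over its alternatives). The SE of SPP1 was 0.11 with the block and 0.30 without. MMP7 gained a call (difference 0.86, SE 0.08 with the block and 0.42 without, adjusted p = 0.0133 and 0.220, limma). Not every array correlated best with its own name. Signals near background limit SOX5, SOX6 and SOX9.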
